A study of Vitis vinifera with 74 samples.

Results

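The response of grapevine leaves to abscisic acid (ABA) was read 48 h after spraying, in 4 ABA libraries and 4 control libraries of the same hour. The libraries were chosen by their labels (leaf, 48 h after treatment) and make up 8 of the 74 samples of the series. The ABA leaves came from potted, self-rooted greenhouse vines of Vitis vinifera 'Cabernet Franc' that had been sprayed to runoff at noon with S-ABA, the natural form of the hormone, at 500 mg per litre (1.9 mM) in water with the surfactant Tween-20. The control leaves came from vines of the same cultivar sprayed with water and Tween-20, so both groups were wetted and both carried the surfactant. Leaves sprayed in the same way at 2, 4 and 24 h (4 ABA and 4 control libraries per time) and 8 libraries of leaves taken before treatment, which bring the leaf libraries to 40, served for comparison. Buds of the same cultivar, from a second experiment with another dose, were used for side-by-side values only. The design was a randomized block in 4 replicates, and which vine gave which library is not in the labels. The p-values below therefore measure the spread between these libraries, which may be partly technical.

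ABA is a plant hormone that accumulates under drought, cold and salt stress and that closes stomata. In the model plant Arabidopsis, ABA bound to its receptors blocks a group of protein phosphatases, which frees SnRK2 kinases to switch on transcription factors and their target genes. Many of those targets protect cells against loss of water, and ABA also takes part in dormancy and cold acclimation of woody plants such as the grapevine.

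Each library counted short reads at the 3′ ends of messenger RNAs, summed per gene. The 8 libraries held between 1813994 and 2407062 counts, and all 40 leaf libraries between 1321798 and 2414909. Of 42413 genes, 13378 had enough counts to be tested, and these held 99.4% of the leaf counts. None of the identifiers occurred in the gene table used here, so genes are described as groups, 4 identifiers are printed, and the leaf tissue could not be checked against marker genes. ABA replicates 3 and 4 were sequenced on a second flow cell, per the codes in the sample descriptions, while the other 2 ABA libraries and all 4 controls were on the first. Libraries of a group were compared in pairs over genes with a pair total of 20 counts or more. The chi-square per degree of freedom, which is 1 for sampling noise alone, was 10.8 and 9.65 for ABA libraries on one flow cell and 14.9 to 25.4 across flow cells. Between control libraries it was 6.88 to 10.4. No pair was near sampling noise, so none was treated as 1 library deposited 2 times; whether the libraries came from separate vines was not tested.

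At 48 h ABA raised more genes than it lowered, and the rises were larger. In ABA leaves 209 genes (1.56% of those tested) were higher and 87 genes (0.65%) were lower than in control leaves, 296 genes (2.21%) in all, by edgeR's quasi-likelihood test at a Benjamini-Hochberg adjusted p under 0.05. The genes that rose had a median log2 fold change of 1.47 (range 0.48 to 10.0), and 149 of them were at least 2-fold, 74 at least 4-fold and 12 at least 16-fold higher. The genes that fell had a median of −0.93 (range −3.11 to −0.44). Of these 35 were at least 2-fold and 4 at least 4-fold lower, and 0 were 16-fold lower. The median over all tested genes was 0.01.

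The 209 genes that rose had a median level of 27.6 CPM, the counts scaled to the same library size, over the 8 libraries, and the 87 that fell had 52.6 CPM. For 147 of the 209 and 72 of the 87 the 4 ABA libraries did not overlap the 4 control libraries. Among all tested genes 3.82% were higher and 3.36% were lower without overlap. Of the genes that rose, 2 had no count in any control library. Calls grew with level. With the tested genes split into 4 groups of about equal size by mean level, 1.29%, 1.88%, 2.36% and 3.32% were called, low to high. The median standard error of the log2 fold change in the same order was 0.46, 0.29, 0.22 and 0.18, so changes of the same size passed the test less easily among genes of low level.

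**Figure D1:**
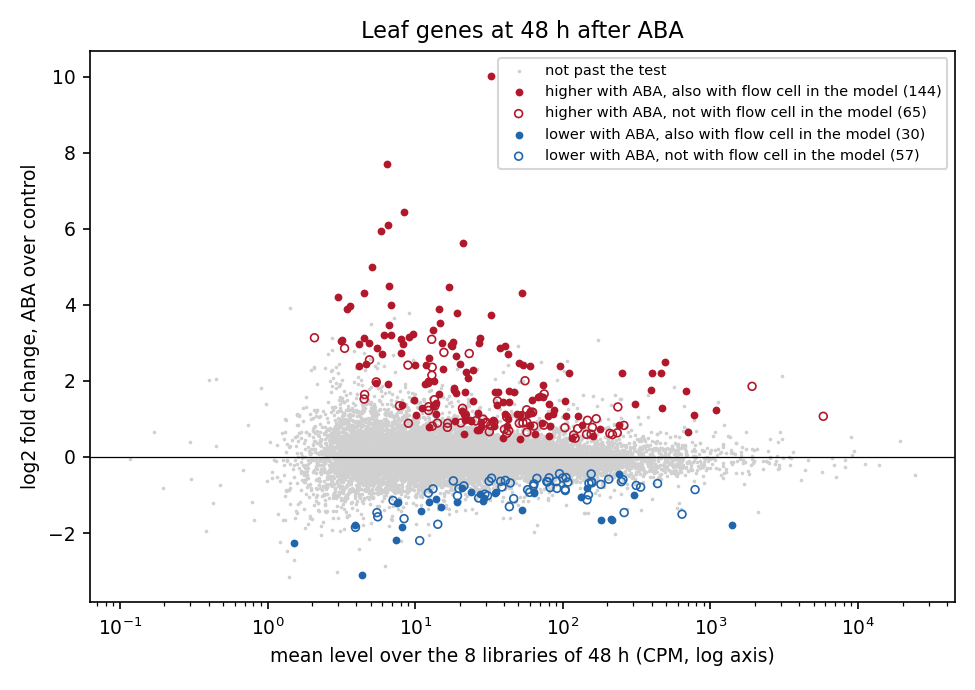
Mean level over the 8 libraries of 48 h (CPM, log axis) against the log2 fold change of ABA over control for each tested leaf gene. Red marks the 209 genes higher and blue the 87 genes lower with ABA; filled symbols are the 144 and 30 genes also called with flow cell in the model, and the largest changes are rises.

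Which genes passed depended on how the second flow cell was handled. With flow cell as a term in the model, 229 genes (1.71%) were higher and 72 (0.538%) lower with ABA, close to the counts above. The genes were partly others: 144 of the 209 and 30 of the 87 were called in both fits. Without the second flow cell, which leaves 2 ABA libraries, 131 genes (0.952%) were higher and 33 (0.24%) lower, and these held 99 of the 209 and 14 of the 87. The flow cell term itself was called for 2731 genes (20.4%), among them 25 of the 209 and 24 of the 87. The part of the flow cell in the changes of single genes was not tested further.

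The counts also depended on which libraries entered the model. With the 8 libraries of 48 h alone, where the count filter left 11571 genes, 47 genes (0.406%) were higher and 9 (0.0778%) lower, and 43 and 9 of them were among those above. Across 6 other fits (other size factors, DESeq2, no count filter, flow cell as a term, without the second flow cell, replicate number as a block) 88 of the 209 and 12 of the 87 were called every time. Those 88 had a median log2 fold change of 2.26 and the 12 of −1.07. When each of the 8 libraries was left out in turn, 59 and 11 were called every time, and 50 and 7 were called in all 14 of these settings. The 14 do not include the model of the 8 libraries alone, which kept 43 of the 209 and 9 of the 87.

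Among the genes called at 48 h, which were chosen on these same libraries, ABA replicate 1 stood nearest to the controls. Of the 209 genes that rose, 161 were above all 4 controls in ABA replicate 1, 202 in replicate 2, 209 in replicate 3 and 196 in replicate 4. Replicate 1 was the lowest of the 4 ABA libraries for 138 of these genes, while replicate 2 was the highest for 110. Of the 87 genes that fell, replicate 1 was the highest ABA library for 54, and replicate 4 was the lowest for 40. Without ABA replicate 1, 373 genes were higher and 267 lower, and these included 200 of the 209 and 85 of the 87.

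In summed level, the 209 genes held 20871, 34391, 29515 and 41765 CPM in ABA replicates 1 to 4, against 11870, 15101, 12912 and 12239 CPM in control replicates 1 to 4. The ABA libraries were all above the controls, and replicate 1 was the lowest of them. One gene of very high level made up much of the sum in replicate 4. It had 4923, 3659, 6357 and 16552 CPM in the ABA libraries and 2847, 4617, 3544 and 3995 CPM in the controls, so its groups overlapped. Without it the sums were 15948, 30733, 23159 and 25213 CPM with ABA and 9023, 10484, 9368 and 8245 CPM in controls. The 87 genes that fell held 8519, 6440, 5856 and 5362 CPM in the ABA libraries, against 13442, 12654, 12730 and 14161 CPM in the controls. These sums describe genes chosen on the same libraries.

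**Figure D2:**
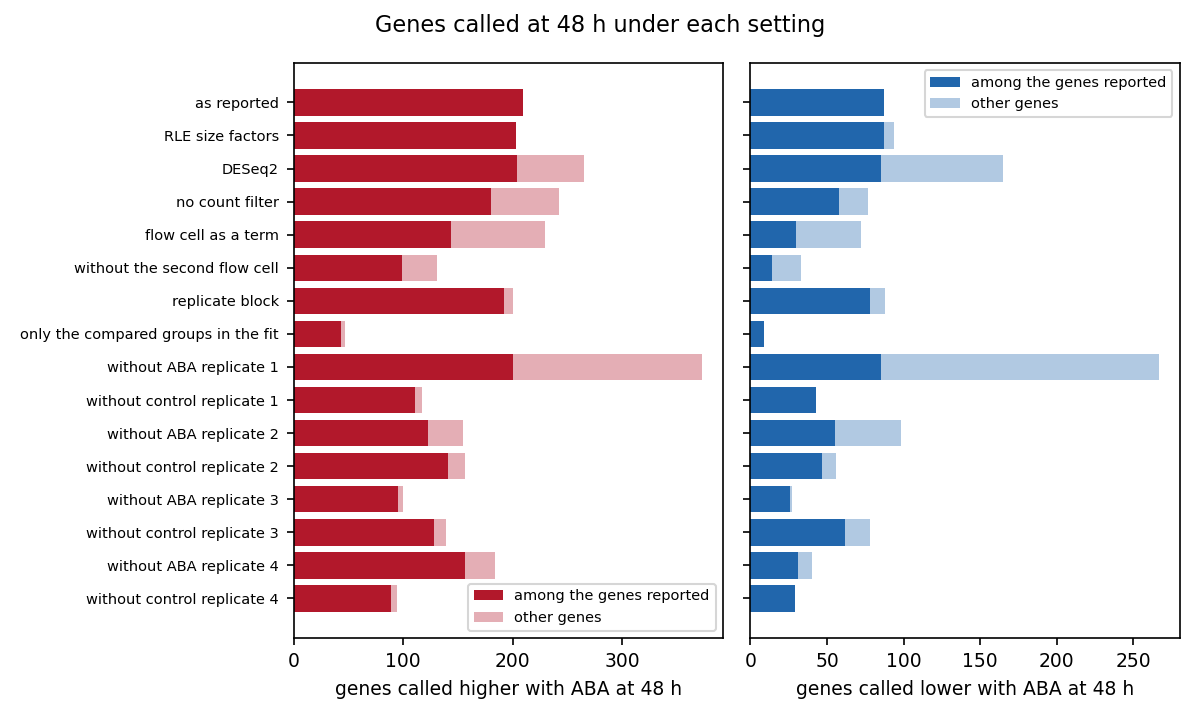
Number of genes called higher (left) and lower (right) with ABA at 48 h under each setting, with the genes shared with the reported 209 and 87 in the dark colour and other genes in the light colour. Leaving out ABA replicate 1 gave the most calls (373 and 267), and a model of the 8 libraries alone the fewest (47 and 9).

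Of the genes that rose, Vitvi12g00209 had the smallest p among 97 that met the rule for named genes, which asks for no overlap between groups and for a call with flow cell as a term. Its level was 68.3, 163, 110 and 83.3 CPM in the ABA leaves of 48 h, against 40.5, 35.3, 34.5 and 28.0 CPM in the control leaves. The mean was 106 ± 41.5 CPM in ABA leaves, against 34.6 ± 5.11 CPM in the control leaves (SD, n = 4 each). The log2 fold change was 1.61 ± 0.22 (SE, edgeR adjusted p 6.86e-05). Its log2 fold change had been −0.50 after 2 h (edgeR adjusted p 0.638). After 4 h it was 1.57 (edgeR adjusted p 8.96e-05), and after 24 h 2.06 (edgeR adjusted p 9.33e-08). The gene thus rose at 4, 24 and 48 h, and its ABA effect at 48 h exceeded that at 2 h by 2.11 ± 0.31 (SE, edgeR adjusted p 0.00085).

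Vitvi05g00204 had the largest fitted rise. It had 6, 470, 10 and 50 counts in ABA replicates 1 to 4 (3.50, 232, 4.52 and 21.0 CPM) and no count in any control of 48 h. With a floor of 3 counts over the whole control group, the pooled ABA counts, scaled for depth, were 168-fold above the floor. Without ABA replicate 2, which held most of the counts, they were 27.3-fold above it. These folds bound the control side only and leave out the spread between ABA libraries. The gene passed the test with all libraries (edgeR adjusted p 0.00457). At 24 h it again spread widely, with 9.23, 52.6, 18.4 and 198 CPM in ABA leaves, against 0.474 CPM in 1 control library and 0 in the others. At 4 h it had 1.25 CPM in 1 ABA library and no count elsewhere, and at 2 h none of the 8 libraries held a count. ABA libraries of 1 time differed by more than 10-fold in this gene, while nearly all control and pre-treatment libraries had none.

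Among the 23 genes that met the rule and fell, Vitvi06g00613 had the smallest p. It had 122, 105, 101 and 92.2 CPM in ABA leaves of 48 h, against 179, 174, 205 and 184 CPM in control leaves, which the rule required not to overlap. Its log2 fold change was −0.82 ± 0.13 (SE, edgeR adjusted p 0.000328). At 24 h it had 154, 153, 130 and 162 CPM with ABA and 295, 289, 265 and 263 CPM in controls, a log2 fold change of −0.90 (edgeR adjusted p 4.45e-05). The difference was −0.33 at 2 h and −0.42 at 4 h on the log2 scale, and neither passed the test (edgeR adjusted p 0.569 and 0.0887). Its level in control leaves of 48 h was the lowest of the 4 control times (186 ± 13.7 CPM, against 278 ± 16.6 CPM at 24 h; SD, n = 4 each), and 8 pre-treatment libraries ranged between 194 and 285 CPM (median 252).

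Vitvi08g00886 had the largest fall under the rule. It had 3.50, 0.493, 2.26 and 7.57 CPM in ABA leaves of 48 h, against 10.5, 18.2, 11.6 and 11.2 CPM in control leaves. The ABA values rest on 6, 1, 5 and 18 counts. The 48 h log2 fold change was −1.84 ± 0.43 (SE, edgeR adjusted p 0.0144), and that of 24 h −2.07 (edgeR adjusted p 0.00862). Values of −0.70 after 2 h and −1.12 after 4 h did not pass the test (edgeR adjusted p 0.686 and 0.132). The 48 h call was lost without ABA replicate 2 (log2 −1.496, edgeR adjusted p 0.054), ABA replicate 3 (−1.69, 0.0691) or control replicate 2 (−1.63, 0.0602). It was also lost with the 8 libraries alone in the model (−1.84, 0.169), so the fitted change was of similar size in these settings.

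**Figure D3:**
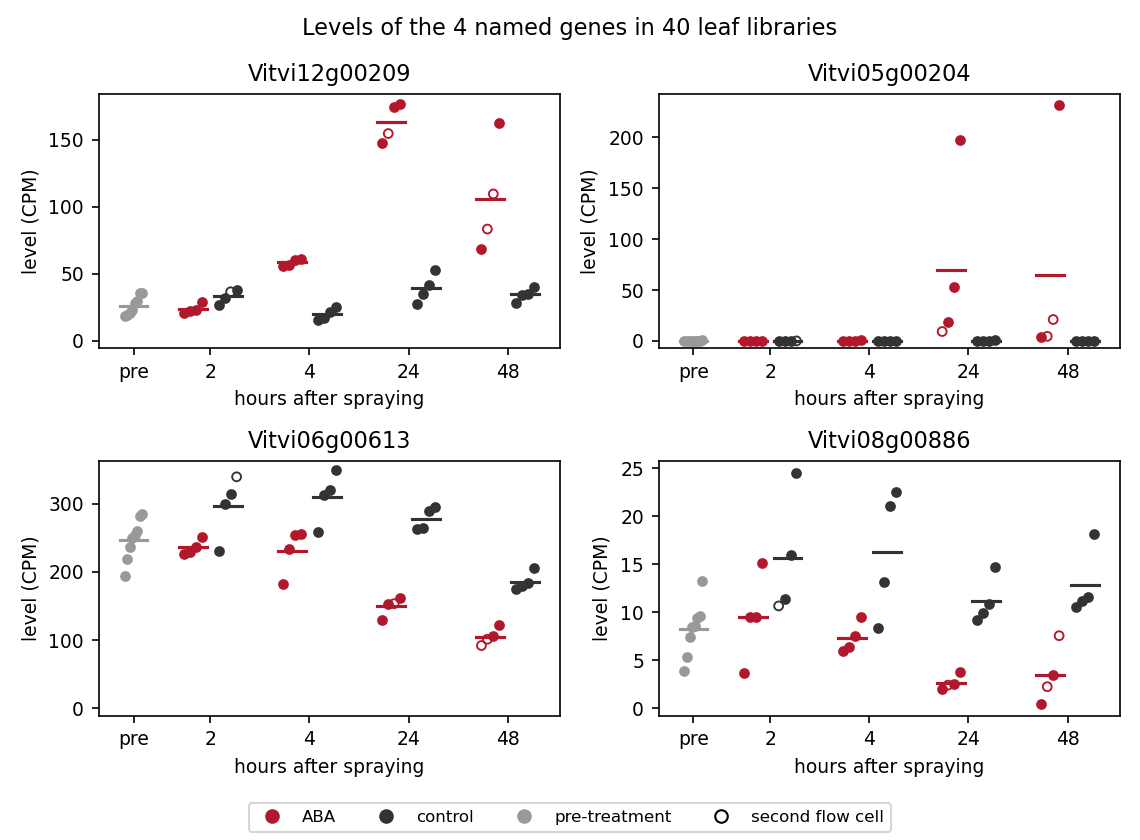
Level (CPM) of the 4 named genes in all 40 leaf libraries by hours after spraying, with ABA left of control at each time; points are libraries, bars are group means, and open symbols are libraries of the second flow cell. Vitvi12g00209 was higher with ABA at 4, 24 and 48 h, Vitvi05g00204 had counts almost only in ABA leaves of 24 and 48 h, and the other 2 genes were lower with ABA at 24 and 48 h.

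The leaves of 2, 4 and 24 h share no library with those of 48 h, and the genes of 48 h were read in them. ABA replicate 1 of 24 h was also on the second flow cell, while the controls of 24 h were on the first. The 209 genes that rose had median log2 changes with ABA of 0.09, 0.87 and 1.04 after 2, 4 and 24 h. Of these genes 7, 43 and 92 were called higher at those times, where 0.0897%, 0.882% and 1.97% of all tested genes were. At 24 h 202 of the 209 had a positive change and at 4 h 186, against 118 at 2 h. Medians over all tested genes were within 0.02 of 0 at each of these times.

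The 87 genes that fell had median changes of 0.07, −0.09 and −0.61 after 2, 4 and 24 h. At 24 h 86 of them had a negative change and 30 were called lower, where 1.18% of all tested genes were. At 4 h 4 were called lower (0.673% of all genes) and 56 had a negative change, and at 2 h 0 were called by edgeR, with 10 at an unadjusted p under 0.05 in either direction. The fallers of 48 h thus had a median near 0 at 4 h, when the risers already had a median of 0.87. Since the genes were chosen at 48 h, their values there are larger by that choice, and the medians show no test of one time against another.

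**Figure D4:**
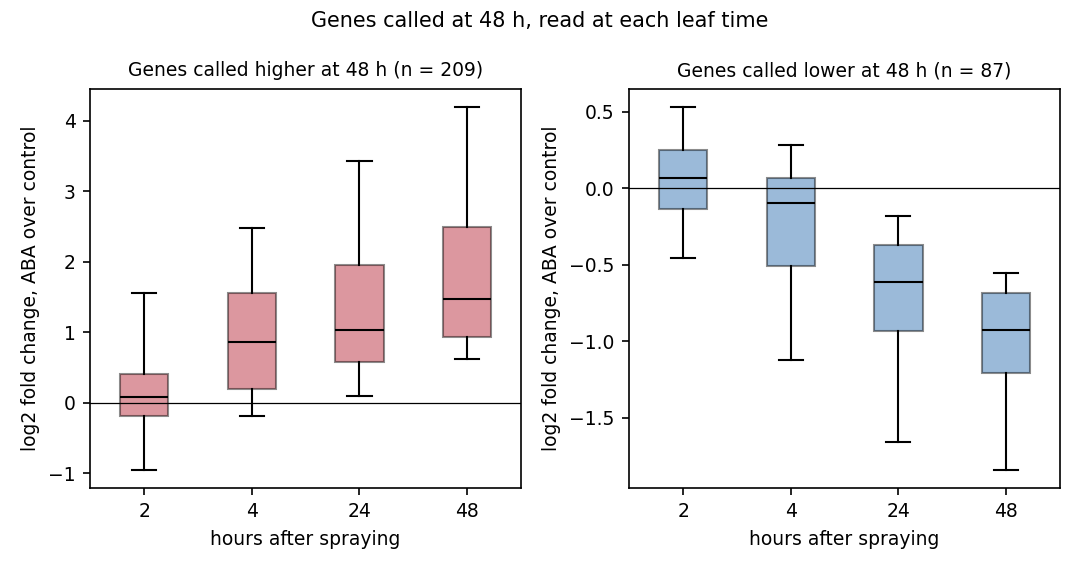
Log2 fold change of ABA over control at 2, 4, 24 and 48 h for the 209 genes called higher (left) and the 87 called lower (right) at 48 h. Boxes are the middle of the distribution over genes with the median as a line, whiskers reach the percentiles 5 and 95, and the 48 h boxes are fixed by the choice of genes; medians at 4 h are 0.87 on the left and −0.09 on the right.

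Not all genes called at 48 h were called a day earlier. The 92 genes called higher at both times had median log2 changes of 0.22, 1.32, 1.88 and 1.67 after 2, 4, 24 and 48 h. For the other 117 these medians were 0.00, 0.49, 0.64 and 1.35, and 110 of them were positive at 24 h. The 30 genes called lower at both times had medians of −0.95 at 48 h and −0.97 at 24 h. For the other 57 the medians were −0.86 at 48 h and −0.48 at 24 h, and 56 were negative at 24 h.

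A gene called at 48 h and not at 24 h is not thereby shown to differ between the times, and the difference was tested gene by gene. No gene was called for a difference between the ABA effects of 48 and 24 h (0 genes by edgeR with 467 at an unadjusted p under 0.05, and 0 by DESeq2 with 452). The lack of a call does not show that the effects were equal. Of the 117 and 57 genes not called at 24 h, 29 and 12 differed at an unadjusted p under 0.05. Those genes were chosen as called at 48 h and not at 24 h, which favours such a difference. Over all 13378 tested genes the number was 467. Against 4 h, 1 gene differed (0.00747% of those tested), with a log2 change of −1.42 at 48 h and 0.61 at 4 h, a difference of −2.03 ± 0.37 (SE, edgeR adjusted p 0.0332). In the ABA leaves of 48 h it had 7.00, 5.91, 4.52 and 6.31 CPM, against 20.0, 16.6, 11.2 and 16.3 CPM in the controls. With flow cell as a term its adjusted p was 0.195 by edgeR, and DESeq2 called 36 genes for this difference, this gene not among them. With the replicate number as a block, edgeR called 0 genes for it.

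Against 2 h, 19 genes (0.142%) differed. Of these 11 (0.0822%) were more positive at 48 h, with log2 changes between 1.45 and 4.49 at 48 h and between −2.44 and 0.23 at 2 h, and all 11 were among the 209 that rose. The other 8 (0.0598%) were more negative, between −2.87 and −0.86 at 48 h and between 0.24 and 1.90 at 2 h, and 7 of them were among the 87 that fell. The difference uses the same libraries of 48 h on which the 209 and 87 were chosen, so this overlap is no separate result. None of the 19 was called at 2 h itself. Control replicate 1 of 2 h was on the second flow cell, as were ABA replicates 3 and 4 of 48 h. With flow cell as a term 6 of the 19 still differed, and the part of the flow cell in the others was not tested. Without ABA replicate 1, 234 genes differed from 2 h, and without other single libraries as few as 2 (ABA replicate 3, or control replicate 4).

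Lists made at the earlier times, on other libraries, were then read in each library of 48 h, as the median over the list of log2 CPM minus the mean of the 4 controls of 48 h. The 264 genes that rose at 24 h had medians of 0.47, 1.15, 0.77 and 0.68 in ABA replicates 1 to 4, against −0.04, 0.08, 0.03 and −0.07 in the controls. The 158 genes that fell at 24 h had −0.29, −0.63, −0.58 and −0.57 in the ABA libraries, against 0.05, 0.02, −0.09 and 0.05 in the controls. ABA and control libraries did not overlap for either list, and ABA replicate 1 was nearest to the controls in both.

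For the 118 genes that rose at 4 h, the ABA libraries had medians of 0.58, 1.25, 0.81 and 0.59, against 0.06, 0.16, 0.01 and −0.22 in the controls. The 90 genes that fell at 4 h had −0.12, −0.34, −0.27 and −0.07 in the ABA libraries, against −0.10, −0.04, −0.04 and 0.17 in the controls, and here the groups overlapped. For these fallers ABA replicate 4, not replicate 1, was nearest to the controls. No library of 4 h was on the second flow cell. Over all tested genes the same medians were within 0.03 of 0 in every library.

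**Figure D5:**
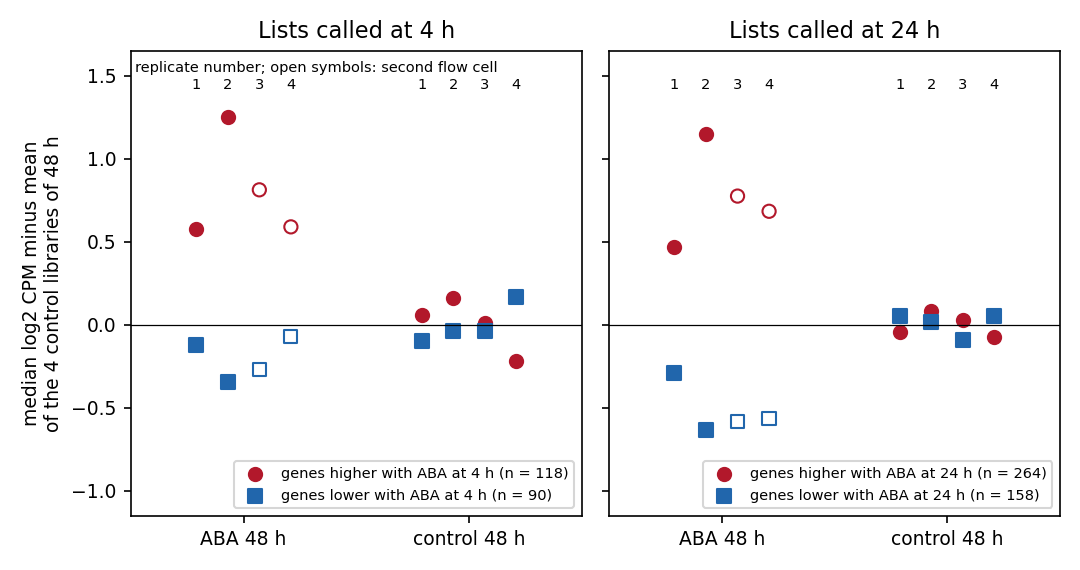
Median log2 CPM minus the mean of the 4 controls of 48 h, in each ABA and control library of 48 h, for genes called at 4 h (left) and 24 h (right); red circles are genes that had risen, blue squares genes that had fallen, and open symbols libraries of the second flow cell. ABA and control libraries are apart for 3 of the lists and overlap for the 90 genes that fell at 4 h.

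By gene, 260 of the 264 risers of 24 h were still positive at 48 h and 92 were called. Their median log2 change was 0.81 at 48 h and 1.26 at 24 h, where they had been chosen. Of the 158 fallers of 24 h, 148 were negative at 48 h and 30 were called, with a median of −0.56 at 48 h and −0.92 at 24 h. The risers of 4 h also had a median of 0.81 at 48 h (1.36 at 4 h), with 110 of 118 positive and 43 called. The fallers of 4 h had a median of −0.24 at 48 h (−1.19 at 4 h), with 64 of 90 negative and 4 called, and that median was −0.11 without control replicate 4. The risers and fallers called were 34.8% and 19% of the 24 h lists, and 36.4% and 4.44% of the 4 h lists. Over all tested genes 1.56% were called higher and 0.65% lower at 48 h. When the 24 h lists were made without the second flow cell, which gave 280 and 128 genes, the medians at 48 h were 0.81 and −0.56.

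Set against the leaves taken before treatment, the ABA leaves of 48 h had 1455 genes higher (10.9%) and 1297 lower (9.7%). Of the 209 genes, 186 were called higher in this comparison, with a median log2 change of 1.29, and of the 87, 82 were called lower, with a median of −0.91. Both comparisons use the same ABA libraries. The 8 pre-treatment libraries carry 4 names 2 times each and entered the fit as 8 separate libraries. Whether libraries of the same name are repeats of 1 sample was not tested. The counts over all genes depended on the fit. They were 891 higher and 740 lower with flow cell as a term, and 520 and 306 without the second flow cell. The latter fit keeps only 2 ABA libraries of 48 h, so flow cell and number of libraries cannot be told apart there. No pre-treatment library was on that flow cell. With the 2 groups alone in the model 850 genes were higher and 685 lower. Control leaves of 48 h had 9 genes higher (0.0673%) and 28 lower (0.209%) than pre-treatment leaves. Of the 87 genes that fell, 0 were higher and 6 (6.9%) lower in that comparison. Of the 209 that rose, edgeR called 0 there, with 34 at an unadjusted p under 0.05, and their median was −0.18 with 145 of them negative. These are the control libraries that the ABA leaves were set against when the genes were chosen.

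Some genes of the ABA response also differed from pre-treatment leaves in leaves that received no ABA. Of the 87 genes that fell at 48 h, 18 (20.7%) were higher and 11 (12.6%) lower in control leaves of 2 h than before treatment, and 22 (25.3%) were higher and 9 (10.3%) lower in control leaves of 4 h. Over all tested genes the shares were 5.61% higher and 5.34% lower at 2 h, and 7.27% and 7.56% at 4 h. The fallers were genes of fairly high level, 63 of the 87 being at or above the median level. Among all genes at or above that level 5.47% were higher and 9.33% lower at 2 h, and 7.36% and 12.5% at 4 h. Of the 209 genes that rose, 14 were higher and 14 lower in controls of 2 h, and 12 were higher and 23 lower in controls of 4 h. At 24 h 4 of the 209 were higher and 2 lower (1.45% and 1.49% of all genes), as were 4 and 2 of the 87. Time of day and handling of the vines cannot be told apart in these control comparisons. At 2 h flow cell differed as well, since control replicate 1 was on the second flow cell and no pre-treatment library was. The 87 genes had a median log2 change of −0.12 in that comparison, and −0.04 with flow cell as a term.

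The buds sat on single-node cuttings that received water alone or S-ABA at 1322 mg per litre (5 mM). Each bud group had 3 columns in the count table, and the 48 h control had 4. Pairs of columns within 10 of the 11 bud groups gave 1.02 to 1.17 on the chi-square scale used above, where 1 is sampling noise. The 48 h control buds gave 1.34 to 2.00, and leaf controls of 48 h 6.88 to 10.4. The labels say that each library was sequenced in triplicate, so the columns of a bud group may be repeat runs. They were added up and counted as 1 sample, and no test was run on buds. Dose, tissue and times also differed from the leaves, and the values stand side by side. Of the 209 leaf genes, 198 were among the 12537 genes tested in both tissues. At least 2-fold higher in ABA buds were 106, 160, 136, 138 and 56 of them after 6, 12, 24, 48 and 72 h. Over all 12537 genes the shares at least 2-fold higher were 9.22%, 16.4%, 10.2%, 12.6% and 4.77% in the same order, and the 198 had 53.5%, 80.8%, 68.7%, 69.7% and 28.3%. Of the 80 leaf fallers present, 10, 20, 11, 19 and 10 were at least 2-fold lower in ABA buds, or 12.5%, 25%, 13.8%, 23.8% and 12.5%, where 4.2%, 11.2%, 6.61%, 8.77% and 7.28% of all genes were.

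The 87 leaf risers present that had also been called at 24 h in leaves showed bud medians of 1.25, 2.60, 2.27, 2.14 and 0.17 (log2 difference, ABA minus control) after 6, 12, 24, 48 and 72 h. The 111 that had not had 0.97, 1.84, 1.34, 1.58 and 0.34, lower up to 48 h and higher at 72 h. Among the named genes, Vitvi12g00209 had 113, 169, 196, 227 and 49.9 CPM in ABA buds at 6, 12, 24, 48 and 72 h, against 58.1, 44.3, 47.6, 60.3 and 95.7 CPM in control buds. It was thus higher with ABA until 48 h and lower at 72 h. Vitvi05g00204 had 0, 2.50, 42.4, 91.6 and 8.47 CPM in ABA buds, against 0.277, 0.391, 0, 0.37 and 1.60 CPM in control buds. Vitvi06g00613, which fell in leaves, had 19.7, 30.9, 15.8, 34.2 and 20.2 CPM in ABA buds, against 10.7, 10.5, 6.30, 9.00 and 19.7 CPM in control buds. Its bud level was higher with ABA at 6 to 48 h, the opposite of its direction in leaves. Vitvi08g00886 was not among the bud genes tested.

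By the chromosome number that the identifiers carry, the genes that rose were spread over chromosomes 1 to 19. Chromosome 18 held 24 of them (2.33% of its tested genes) and chromosome 16 held 14 (2.69%), and the lowest share was 0.945%, on chromosome 13. Several of the 14 on chromosome 16 had identifier numbers close to each other, and whether these are close copies was not tested. Over all chromosomes 1.56% of the tested genes rose.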

How the data were processed

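Transcript ends were sequenced with the QuantSeq 3′ kit on a NextSeq500, per the labels' protocols. The deposited values are raw counts per gene, 1 table for leaves and 1 for buds. FastQC, STAR and DESeq2 are named, without versions or roles, per the submitters' processing notes. Genome build, annotation, counter and strand setting are not stated in the labels, so genes with close copies or antisense partners are uncertain. Columns were matched to samples by name. The 8 pre-treatment leaf columns carry 4 names 2 times each and were used as group members only.

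Leaf counts were fitted with edgeR 4.0.16 in R 4.3.3: TMM scaling, filterByExpr with a minimum count of 10, 1 mean for each of 9 groups, quasi-likelihood tests, and Benjamini-Hochberg adjustment over 13378 genes at 0.05. Differences between ABA effects were contrasts of that fit. Standard errors of log2 fold changes were derived as the absolute log2 fold change over the square root of the test's F statistic. CPM values use TMM-scaled library sizes. Bud columns of a group were added up, filtered and TMM-scaled, and compared on log2 CPM with a prior count of 2. The fits were tested on simulated counts. Alternatives were RLE size factors, DESeq2 1.42.0, no count filter, flow cell as a term, without the second flow cell, a replicate block, the compared groups alone, and each 48 h library left out.

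Named genes had to pass the test, average at least 5 CPM over the 8 libraries, show no overlap between groups and pass with flow cell as a term. In each direction the gene with the smallest p and the one with the largest change are named. The genes, lists and comparisons were chosen with earlier results of these data known. Gene lists by function could not be formed without gene names.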

Additional observations from a re-analysis of the deposited data

Results flagged for a closer look

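In 50 groups of libraries the highest or lowest value was compared with its nearest neighbour, and chance flags about 1 in 20 such groups. For Vitvi05g00204, ABA replicate 2 of 48 h (232 CPM) stood far from the other ABA libraries, the nearest of which had 21.0 CPM. The same gene had a count in a single library of 3 other groups, at 1.25 CPM in ABA leaves of 4 h, 0.474 CPM in control leaves of 24 h and 0.508 CPM in pre-treatment leaves, where the others had none. With counts this low, 1 library with any count stands apart by construction. For Vitvi08g00886, control replicate 2 of 48 h (18.2 CPM) stood apart from the other controls, the nearest of which had 11.6 CPM.

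By the test of the difference between ABA effects (edgeR, adjusted p under 0.05), 1 gene was called between 48 and 4 h and 19 genes between 48 and 2 h. Neither count was stable: the first was 0 with a replicate block, with flow cell as a term, without the second flow cell and with the compared groups alone, and the second was 2 to 234 with 1 library left out.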

How the results depend on the processing

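The count of genes higher with ABA at 48 h (209) was 203 with RLE size factors, 265 with DESeq2, 242 without a count filter and 229 with flow cell as a term. It was 131 without the second flow cell, 47 with the compared groups alone, and 94 to 373 with 1 library left out. It moved by over 1.5 times without ABA replicate 1 (373) or 3 (100), or control replicate 1 (117), 3 (139) or 4 (94). The count of genes lower (87) was 94 with RLE, 165 with DESeq2, 77 without a filter, 72 with flow cell as a term, 33 without the second flow cell and 9 with the compared groups alone. With 1 library left out it was 27 to 267, and moved most without ABA replicate 1 (267), 3 (27) or 4 (40), or control replicate 1 (43), 2 (56) or 4 (29).

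Genes differing between 48 and 4 h (1) numbered 36 with DESeq2, 10 without a filter, 0 with flow cell as a term, without the second flow cell or with the compared groups alone, and 0 to 3 with 1 library left out (3 without ABA replicate 1, 1 without control replicate 3, 0 without any other). The 36 of DESeq2 did not include the 1 of edgeR. Between 48 and 2 h (19) they numbered 98 with DESeq2, 73 without a filter, 9 without the second flow cell and 2 to 234 with 1 library left out, moving by over 1.5 times without any library but ABA replicate 4. Between 48 and 24 h the count was 0 in every setting run. Against pre-treatment, 1455 genes higher became 891 with flow cell as a term, 520 without the second flow cell, 850 with the compared groups alone and 810 to 1521 with 1 library left out. The 1297 lower became 740, 306, 685 and 730 to 1418 in the same settings. ABA replicates 3 (810 and 730) and 4 (872 and 730) moved these counts by over 1.5 times. The causes were not tested.

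ABA and control libraries of 1 replicate number did not deviate together (correlations of −0.18, −0.04, 0.02 and 0.10), so the numbers were not taken as pairs. As ABA replicates 3 and 4 were on another flow cell, this check cannot show that the blocks had no effect. With a replicate block 200 genes were higher and 88 lower at 48 h, 1387 and 1269 against pre-treatment, 0 differed between 48 and 4 h, and 15 between 48 and 2 h.

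Of the named genes, Vitvi12g00209 and Vitvi06g00613 passed in all 15 alternatives, Vitvi05g00204 in the 14 that tested it and Vitvi08g00886 in 11 of 15. One of these, flow cell as a term, was required by the rule that chose them. With the compared groups alone, Vitvi05g00204 was not among the genes left by the count filter, so that setting gave no check of it. The medians of the 4 h and 24 h lists at 48 h kept their sign in every setting, with 0.67 to 1.09 for the 24 h risers and −0.34 to −0.11 for the 4 h fallers, which moved by over 1.5 times without control replicate 4 (−0.11). Totals of 1813994 to 2407062 counts limit what can be seen among genes of low level, where the standard errors were largest.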
